A study of Mus musculus with 4 samples.

Results

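The genes described here are 9 neutrophil genes of the mouse: the formyl peptide receptors Fpr1 and Fpr2, the G-CSF receptor Csf3r, the surface antigen Ly6g, the granule genes Ngp, Camp, Mpo and Elane, and the resistin-like gene Retnlg. They were picked by gene symbol from a table of 24441 genes, and all 9 symbols were found once. The table holds 4 RNA libraries from skin of female C57BL/6 mice, 2 labelled wild type (WT) and 2 labelled GSDMD-/- (GSDMD KO), at postnatal week 8 by the labels. The mice of both genotypes received subcutaneous bleomycin (BLM), a cytotoxic antibiotic that scars the skin, every other day over 28 days, so the WT group carries the treatment too and no untreated skin enters the comparison. The KO line was made by injecting Cas9 mRNA and a guide RNA into fertilized C57BL/6 eggs. The paper names it a knockout of GSDMD, the pore-forming executor of pyroptosis. The edit was made in the egg, so it concerns the whole animal and not one cell type. GSDMD protein was not measured in these libraries. Gsdmd itself had WT levels of 14.0 and 18.2 FPKM and KO levels of 3.53 and 2.26 FPKM, where FPKM is fragments scaled by transcript length and by library depth (log2 difference -2.14, standard error 0.29, adjusted p = 0.248 by limma). The KO libraries stood apart from each other: KO replicate 1 held the most hair follicle keratin RNA, and KO replicate 2 had the lowest leukocyte, fibroblast and endothelial markers, so the member results are also given without each of them.

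Neutrophils are short-lived granulocytes that leave the blood within hours of tissue injury. They follow formylated peptides from bacteria and from damaged mitochondria through FPR1 and FPR2, and their production and survival depend on G-CSF acting on CSF3R. Their granule proteins are made in order during maturation in the bone marrow: the primary granule enzymes myeloperoxidase (Mpo) and neutrophil elastase (Elane) first, then the secondary granule proteins Ngp and Camp, the cathelicidin. The mRNA of these granule proteins is largely gone by the time the cell reaches a tissue, whereas receptor mRNA is carried by mature cells. Fpr1, Fpr2 and Csf3r are also read in monocytes and macrophages, while Ly6g is the antigen most used to tell mouse neutrophils from other cells.

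The start regions of the 4 members that were measurable in this skin and of Elane, which was not, are printed here, because they allow the same short letters to be looked for in genes of either kind. Each is the RefSeq promoter on build GRCm38.p6, from 250 bases before to 50 bases after the start site, 5′ to 3′ on the strand of the gene. They lie at chr17:17883890-17884189 (minus strand) for Fpr1 and, on the plus strand, at chr17:17887574-17887873 for Fpr2, chr4:126024409-126024708 for Csf3r, chr16:48872358-48872657 for Retnlg and chr10:79886062-79886361 for Elane. Capitals mark the core of the PU.1 motif, GAGGAA, and a C/EBP motif, TTGCNNAA, both read on either strand. PU.1 and the C/EBP proteins are the main regulators of granulocyte genes.
Fpr1: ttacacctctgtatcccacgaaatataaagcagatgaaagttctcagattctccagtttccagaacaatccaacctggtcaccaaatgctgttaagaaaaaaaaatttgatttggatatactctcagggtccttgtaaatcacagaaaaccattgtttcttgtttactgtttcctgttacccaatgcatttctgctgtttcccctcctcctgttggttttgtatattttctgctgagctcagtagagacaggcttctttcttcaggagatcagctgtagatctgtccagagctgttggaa
Fpr2: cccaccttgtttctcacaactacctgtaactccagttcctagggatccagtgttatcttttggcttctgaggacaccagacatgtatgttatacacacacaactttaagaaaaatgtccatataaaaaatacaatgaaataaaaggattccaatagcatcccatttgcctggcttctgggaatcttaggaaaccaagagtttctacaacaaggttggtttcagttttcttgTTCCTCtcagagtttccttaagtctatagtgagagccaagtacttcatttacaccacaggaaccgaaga
Csf3r: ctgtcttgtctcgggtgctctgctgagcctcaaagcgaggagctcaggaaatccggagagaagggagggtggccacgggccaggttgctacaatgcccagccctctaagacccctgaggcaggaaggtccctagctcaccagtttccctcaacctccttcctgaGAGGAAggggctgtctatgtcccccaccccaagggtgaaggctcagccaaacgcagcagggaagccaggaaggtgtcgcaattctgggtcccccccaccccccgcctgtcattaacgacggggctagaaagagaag
Retnlg: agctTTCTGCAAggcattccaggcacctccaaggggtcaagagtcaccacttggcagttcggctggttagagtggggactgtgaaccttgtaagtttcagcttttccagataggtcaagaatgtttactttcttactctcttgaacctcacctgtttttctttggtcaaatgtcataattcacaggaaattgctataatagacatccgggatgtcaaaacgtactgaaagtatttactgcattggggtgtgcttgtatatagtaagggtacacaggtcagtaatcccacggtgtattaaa
Elane: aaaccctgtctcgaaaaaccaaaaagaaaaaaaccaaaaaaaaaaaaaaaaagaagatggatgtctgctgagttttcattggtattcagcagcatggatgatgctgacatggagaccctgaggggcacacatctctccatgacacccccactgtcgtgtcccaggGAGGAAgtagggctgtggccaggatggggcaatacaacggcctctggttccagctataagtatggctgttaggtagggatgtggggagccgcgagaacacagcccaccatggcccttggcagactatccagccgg
GAGGAA began 19 bases before the start site in Fpr2, 86 bases before it in Csf3r and 85 bases before it in Elane, whereas neither motif was in the Fpr1 window. The C/EBP letters were in Retnlg, beginning 246 bases before the start. Over the 9 members, 5 held GAGGAA and 3 held TTGCNNAA, while 28.3% and 10.8% of 32851 RefSeq promoters of this length did so. A match shows letters only, and no binding was measured here.

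Gene positions refer to build mm9, on which the reads were aligned. Fpr1 (chromosome 17, 18013435 to 18020903, minus strand) and Fpr2 (chromosome 17, 18024788 to 18030916, plus strand) point away from each other, with 3884 bases between their start sites. Of Fpr1, the WT libraries held 3.88 and 10.5 FPKM and the KO libraries 1.06 and 0.134 FPKM. The groups did not overlap, and KO replicate 2 was close to nothing, with an estimated 2.27 fragments behind its value. The mean was 7.17 ± 4.66 FPKM for WT (SD, n = 2) and 0.595 ± 0.652 FPKM for GSDMD KO (SD, n = 2). On the log2(FPKM + 1) scale, which understates changes of low genes, the difference of KO from WT was -2.29 (standard error 0.52, limma, Benjamini-Hochberg adjusted p over 13027 genes = 0.248). Fpr2, which also answers to serum amyloid A and annexin A1, had 4.54 and 9.89 FPKM in WT skin against 0.893 and 0.413 FPKM in KO skin. The order of the 4 libraries was the same as for Fpr1, with WT replicate 2 highest and KO replicate 2 lowest. Its log2 difference was -2.25 (standard error 0.41, adjusted p = 0.248 by limma). The pair are close relatives in sequence, and an annotated transcript of Fpr3 shares exon sequence with Fpr2 on the same strand, so fragments could have been split between them by the authors' assignment. Fpr3, Fpr-rs3, Fpr-rs4 and Fpr-rs6, the other 4 members of the family in the table, were listed at 0 in every library.

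Csf3r (chromosome 4, 125701903 to 125722219, plus strand) encodes the receptor through which G-CSF drives granulocyte production. It had WT levels of 3.96 and 7.18 FPKM and KO levels of 1.91 and 0.15 FPKM. Both KO values lay below both WT values, but on the log2 scale the KO libraries differed from each other more than the WT libraries did. The log2 difference was -1.80 (standard error 0.53, adjusted p = 0.248 by limma), ranging from -1.13 when KO replicate 2 was left out to -2.47 when KO replicate 1 was left out. Retnlg (chromosome 16, 48872721 to 48874611, plus strand), a resistin-like secreted protein abundant in mature neutrophils, had 5.36 and 7.30 FPKM in WT skin against 1.88 and 2.24 FPKM in KO skin. Of the 4 tested members it had the closest KO replicates and was the only one in which KO replicate 2 was not the lowest library. Its log2 difference was -1.25 (standard error 0.27, adjusted p = 0.248 by limma). In ratios of mean FPKM, WT exceeded KO 12.0-fold for Fpr1, 11.05-fold for Fpr2, 5.41-fold for Csf3r and 3.07-fold for Retnlg. These ratios turned on single libraries: without WT replicate 2 the ratio was 6.52-fold for Fpr1 and 6.95-fold for Fpr2, and without KO replicate 2 it was 6.79-fold for Fpr1 and 2.92-fold for Csf3r. Without KO replicate 1 it was 17.5-fold for Fpr2 and 37.0-fold for Csf3r, and that of Fpr1 is not given because its remaining KO value rests on fewer than 3 fragments. Only for Retnlg did it stay close, at 2.60-fold to 3.54-fold with any 1 of the 4 libraries left out.

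**Figure D1:**
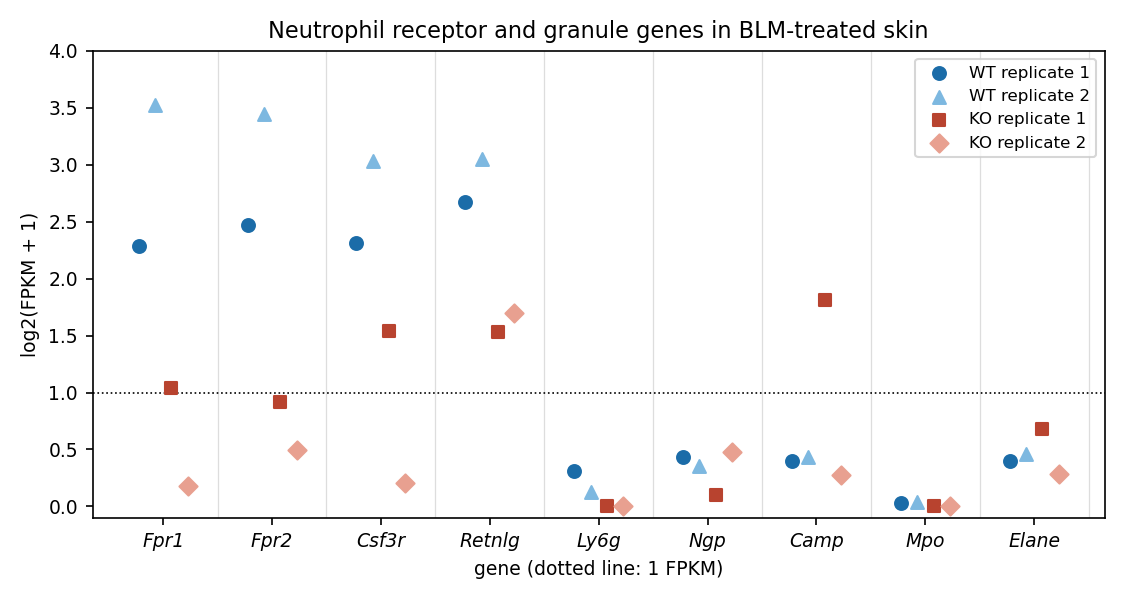
Level of each of the 9 genes, as log2(FPKM + 1) on the vertical axis, with one point per library for WT replicates 1 and 2 and KO replicates 1 and 2. In Fpr1, Fpr2, Csf3r and Retnlg both KO points lie below both WT points, whereas Ly6g, Ngp, Mpo and Elane stay under the dotted line at 1 FPKM in all libraries and Camp exceeds it in KO replicate 1 only.

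These 4 genes were the only members that reached 1 FPKM in 2 or more libraries, the limit for testing. Fpr2 passed it through the WT libraries alone, so its direction was in part fixed by the limit. After adjustment none of the 4 was called (adjusted p under 0.05 and absolute log2 difference above 1), as was true of every gene: 0% of the 13027 tested genes were called lower by limma. At the unadjusted p under 0.05 with the same limit on size, 4 of the 4 were lower in GSDMD KO mice, beside 4.14% of all tested genes (539 lower and 802 higher; 712 lower and 554 higher with upper-quartile scaling). In 4 of the 4, each KO value was under each WT value, as in 20.5% of all tested genes. For a single gene, the two-sided exact permutation test of 2 libraries against 2 has p = 0.333 as its smallest value. Leaving out KO replicate 1 brought Fpr1, Fpr2 and Csf3r under the adjusted threshold (adjusted p = 0.0118, 0.0110 and 0.00672 by limma), but then 1168 genes were called lower in all, and KO replicate 2 stood alone for its group and was assumed to vary like the WT libraries. Without KO replicate 2 none of the 4 passed, with log2 differences of -1.86 for Fpr1, -2.04 for Fpr2 and -1.33 for Retnlg. Retnlg moved little, since its log2 difference was -1.17 without KO replicate 1 (adjusted p = 0.0591 by limma).

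The remaining 5 members were hardly present in the skin of either genotype. Of their 20 values, 19 were under 1 FPKM. Ly6g (chromosome 15, 74985691 to 74989558) stood at 0.238 and 0.0928 FPKM in WT skin and was listed at 0 in both KO libraries. This is the defining surface antigen of mouse neutrophils, and both WT values were under the limit for testing. It lies among related Ly6 genes, of which Ly6c1 alone had 131 and 118 FPKM in WT, so fragments could also have been assigned to a neighbour. Mpo (chromosome 11, 87607286 to 87617914), the peroxidase of primary granules, had 0.0227 and 0.0278 FPKM in WT, about 1.09 fragments in each of these libraries, and was listed at 0 in KO mice. An exon of Mpo overlaps the annotated gene Gm11505 on the opposite strand. For Mpo both groups were under the floor of 3 fragments, and for Ly6g, without a fragment estimate, the KO group was listed at 0, so a fold is given for neither.

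Elane (chromosome 10, 79349057 to 79350961), the elastase of primary granules, had WT levels of 0.319 and 0.372 FPKM and KO levels of 0.599 and 0.216 FPKM. The 2 KO values enclosed the WT values, and an estimated 2.53 to 7.56 fragments stood behind each. Ngp (chromosome 9, 110322312 to 110325516), a secondary granule protein related to the cathelicidins, had 0.348 and 0.276 FPKM in WT skin against 0.0733 and 0.395 FPKM in KO skin. Here too the groups overlapped, with KO replicate 2 the highest of the 4. Camp (chromosome 9, 109749891 to 109751970), the antimicrobial cathelicidin, had WT levels of 0.315 and 0.348 FPKM and KO levels of 2.51 and 0.209 FPKM. KO replicate 1 thus held an estimated 20.7 fragments of Camp, against 1.6 to 3.31 in the other 3 libraries. The same library was the one with the hair follicle keratins (Krt71 at 86.4 FPKM, against at most 2.77 FPKM elsewhere), and whether Camp came with them was not tested. In Ngp, Camp and Elane the difference between genotypes was smaller than the spread between replicates. Over all 9 members without the limit on low values, the median log2 difference was -0.22, against -2.02 over the 4 that were tested.

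**Figure D2:**
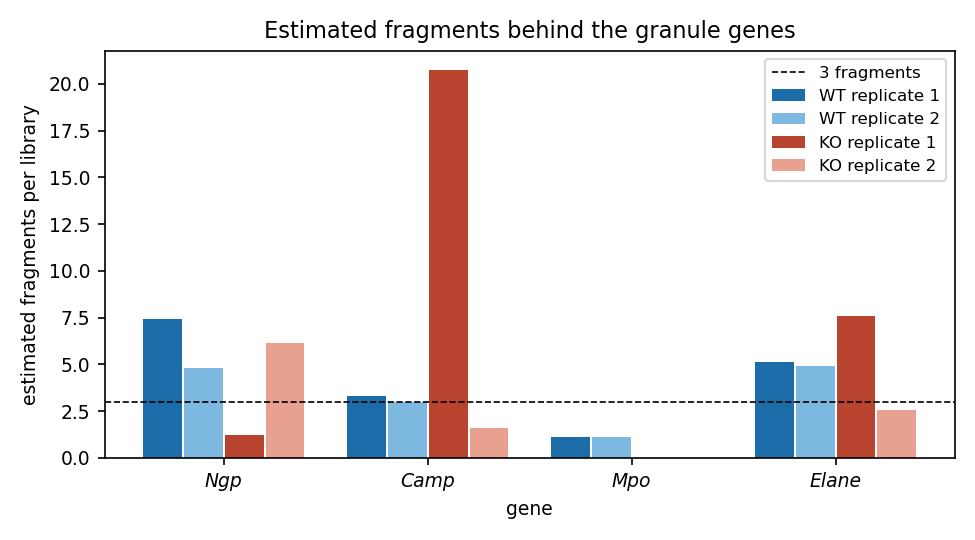
Number of fragments estimated behind Ngp, Camp, Mpo and Elane in each library (vertical axis, fragments per library), from the FPKM value, the transcript length and the estimated depth. The dashed line at 3 fragments marks the floor, the 20.7 fragments of Camp in KO replicate 1 stand above the rest, and every other bar is at or under 7.56; Ly6g is not drawn because its annotated transcript and its position in the table differ.

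The low granule members were set beside the other granule genes. Of 5 primary granule genes 4 were under the limit, none above 0.599 FPKM in a library. The exception was Prtn3, proteinase 3, at 3.40 and 8.68 FPKM in WT skin against 6.60 and 0.802 FPKM in KO skin, and its groups overlapped. Of 10 secondary granule genes 7 were under the limit, Ltf (lactoferrin) and Mmp8 (neutrophil collagenase) among them. Ltf had WT levels of 0.167 and 0.666 FPKM and KO levels of 0.827 and 0.345 FPKM. Mmp8 had 0.640 and 0.521 FPKM in WT skin against 0.121 and 0.0651 FPKM in KO skin, so that its groups did not overlap. All of these values lay under 1 FPKM, and no fragment number was estimated for Mmp8. The 3 secondary granule genes that were tested, Lcn2, Chil3 and Pglyrp1, had a median log2 difference of -2.30, which is the value of Lcn2. Its groups overlapped, with 121 and 1057.9 FPKM in WT skin against 139 and 36.9 FPKM in KO skin, as did those of Pglyrp1. Chil3, a chitinase-like protein also made by activated macrophages, had WT levels of 17.1 and 18.4 FPKM and KO levels of 4.24 and 0.892 FPKM. Lcn2, the siderophore-binding lipocalin, is made by keratinocytes as well, and of the 3 genes the groups were apart in Chil3 alone.

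Genes of later granules and of the oxidative burst had higher levels in this skin than the primary granule genes, with lower values in the KO libraries. Of 6 tertiary granule and vesicle genes 5 were tested, and in 5 of these each KO value was under each WT value (20.5% of all tested genes). Mmp9, the gelatinase of tertiary granules, had 2.37 and 6.68 FPKM in WT skin against 1.23 and 0.564 FPKM in KO skin. The integrin chains Itgam and Itgb2, which form the receptor CD11b/CD18 of neutrophils and macrophages, had log2 differences of -3.48 (standard error 0.74) and -3.75 (standard error 0.73). All 6 genes of the phagocyte NADPH oxidase list had an unadjusted p under 0.05 and a log2 difference below -1, as did 4.14% of all tested genes, with a median log2 difference of -2.46, and 0 of the 6 passed after adjustment by limma. Ncf1, the p47phox subunit, had WT levels of 43.2 and 52.9 FPKM and KO levels of 9.54 and 2.38 FPKM. These oxidase and integrin genes are read in macrophages as well as in neutrophils.

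Of 8 other chemoattractant receptors 6 were tested, and in 3 of them each KO value was under each WT value (20.5% of all tested genes). C5ar1, the receptor of complement C5a, had 16.6 and 25.4 FPKM in WT skin against 5.93 and 0.579 FPKM in KO skin. C3ar1 and Ptafr, the receptors of C3a and of platelet-activating factor, had log2 differences of -2.95 (standard error 0.77) and -2.41 (standard error 0.82). Cxcr2, the receptor through which neutrophils follow CXC chemokines, had WT levels of 1.73 and 1.92 FPKM and KO levels of 1.76 and 0.590 FPKM. KO replicate 1 thus lay between the WT libraries for Cxcr2, so the groups overlapped, with a log2 difference of -0.43 (standard error 0.34, limma adjusted p = 0.511). Ltb4r1, the leukotriene B4 receptor, had a log2 difference of -0.09 (standard error 0.30), and Ltb4r2 one of 0.30 (standard error 0.37).

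Among 12 genes listed for mature neutrophils, 11 were tested and 11 had a negative log2 difference (5392 of 13027 over all tested genes). Of these, 5 had an unadjusted p under 0.05 and a log2 difference below -1, beside 4.14% of all tested genes, and 0 passed after adjustment by limma. The C-type lectin receptors Clec4d and Clec4e had the smallest adjusted p-values of the list, 0.19 each by limma. Clec4e and Trem1 passed the limit for testing through the WT libraries alone, so their direction, and their place in these counts, was in part fixed by the limit, and the same holds for Cebpe. Clec4e had 12.1 and 11.04 FPKM in WT skin against 0.674 and 0.253 FPKM in KO skin. Hdc, which makes histamine, had WT levels of 7.68 and 12.9 FPKM and KO levels of 3.31 and 0.968 FPKM. At the other end, Il1r2, the decoy receptor of IL-1, had 19.0 and 18.5 FPKM in WT skin against 16.5 and 17.4 FPKM in KO skin, and Padi4, the enzyme that citrullinates histones in neutrophils, had overlapping groups with a log2 difference of -0.17 (standard error 0.45). Counted together without the 9 members, the lists of receptors, granules, oxidase and mature neutrophils hold 46 genes, of which 30 were tested. In 29 of these the log2 difference was negative, as it was in 5392 of all 13027 tested genes, and 21 had both KO libraries below both WT libraries (20.5% of all tested genes). Their median log2 difference was -2.26, beside 0.11 over all tested genes. Other lists were not in this count. The protease inhibitors had 3 negative and 4 positive log2 differences, and the transcription factors 2 and 2. The receptor ligands had 4 negative and 1 positive, and the calgranulins 2 negative and 0 positive.

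**Figure D3:**
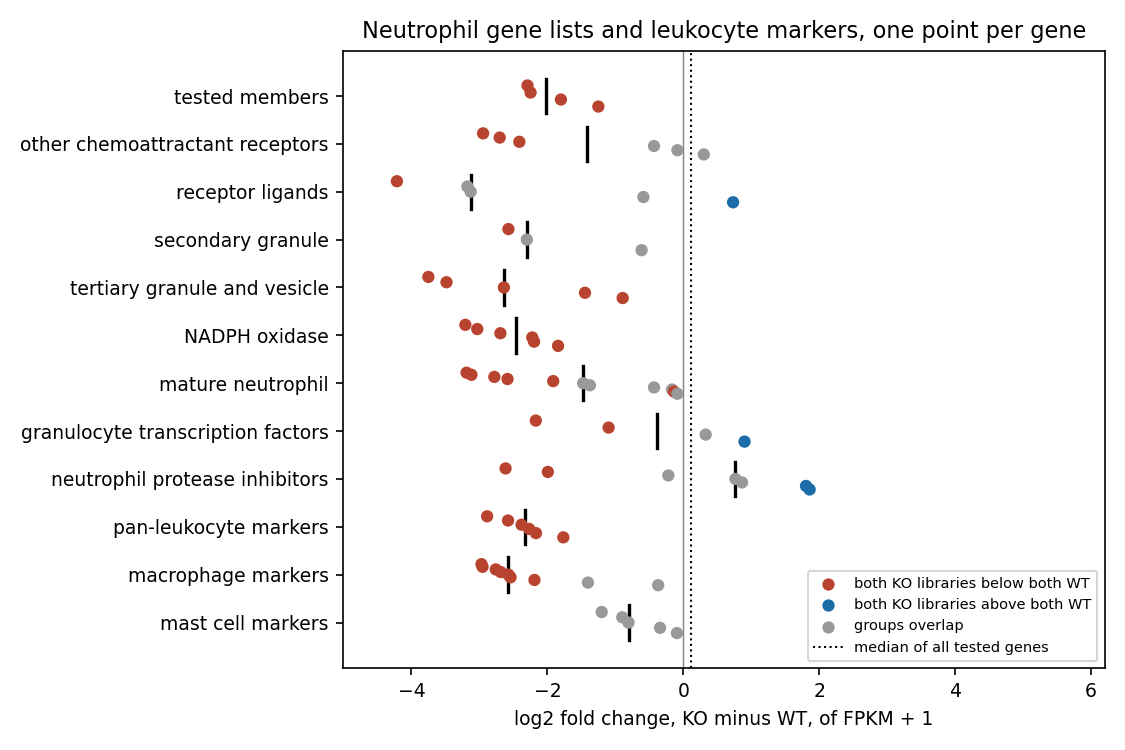
Log2 difference of KO from WT in FPKM + 1 (horizontal axis) for every tested gene of 12 gene lists, one point per gene, with a black bar at the median of the list and a dotted line at the median of all tested genes, 0.11. The tested members lie between -2.29 and -1.25, the NADPH oxidase genes between -3.21 and -1.84, and the protease inhibitors on both sides of 0.

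The ligands of the member receptors did not share one direction. Csf3, which encodes G-CSF, did not reach the limit for testing, with 0.994 and 2.38 FPKM in WT skin against 0.0599 and 0 FPKM in KO skin. Saa3, an acute-phase protein, was very uneven, with 687 and 4598 FPKM in WT skin against 375 and 23.4 FPKM in KO skin. Its groups did not overlap, and its log2 difference was -4.21 (standard error 1.52, adjusted p = 0.276 by limma). The groups of Saa1 and Saa2 did overlap, with log2 differences of -3.13 (standard error 1.76) and -3.18 (standard error 1.73). Anxa1, annexin A1, went the other way, at 179 and 113 FPKM in WT skin against 203 and 276 FPKM in KO skin, a log2 difference of 0.73 (standard error 0.34, adjusted p = 0.332 by limma). Downstream of CSF3R, the broadly expressed Jak1 and Stat3 had log2 differences of -0.13 (standard error 0.24) and -0.12 (standard error 0.24). Fgr, a myeloid kinase of the Src family, had a log2 difference of -2.44 (standard error 0.41).

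Of the granulocyte transcription factors, Spi1, which encodes PU.1, had 37.0 and 49.8 FPKM in WT skin against 15.9 and 4.65 FPKM in KO skin. Cebpe, needed for secondary granules, was low at 1.6 and 1.91 FPKM in WT skin against 0.540 and 0.0729 FPKM in KO skin. Cebpa and Cebpb, which skin epithelium also reads, had positive log2 differences of 0.33 (standard error 0.37) and 0.90 (standard error 0.36). For the neutrophil protease inhibitors, Slpi, an inhibitor of elastase, had 41.4 and 60.9 FPKM in WT skin against 21.2 and 6.46 FPKM in KO skin. Serpinb1a, an intracellular inhibitor of the same enzyme, had a log2 difference of -0.22 (standard error 0.27). The stefins differed in sign, with Stfa2l1 at 16.1 and 12.9 FPKM in WT skin against 1.25 and 1.81 FPKM in KO skin, while Stfa3 had a positive log2 difference of 1.86 (standard error 0.65).

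Close relatives of Retnlg and the calgranulins completed the neutrophil lists. Retn, resistin, had 369 and 1090.2 FPKM in WT skin against 310 and 15.5 FPKM in KO skin. Retnla, which alternatively activated macrophages make, had WT levels of 314 and 101 FPKM and KO levels of 56.8 and 1.05 FPKM. In all 3 tested members of the resistin family each KO value was under each WT value (20.5% of all tested genes), but Retn and Retnla differed far more between KO replicates than Retnlg did. S100a8 and S100a9, the subunits of calprotectin and among the most abundant proteins of neutrophils, had log2 differences of -1.48 (standard error 0.33) and -1.98 (standard error 0.63). Stressed keratinocytes make both as well, and neither passed the adjusted threshold in limma.

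Of the marker lists of other cells, the pan-leukocyte, macrophage and erythroid lists had lower mean levels in both KO libraries, as the members did, whereas mast cell, fibroblast and endothelial markers were lower in KO replicate 2 alone. All 6 pan-leukocyte markers had both KO libraries below both WT libraries (20.5% of all tested genes), and their summed level was 389 and 461 FPKM in WT skin against 177 and 28.2 FPKM in KO skin. All 9 macrophage markers had a negative log2 difference, 7 of them without overlap (against the same 20.5%), with sums of 2061 and 2079 FPKM in WT skin against 865 and 90.05 FPKM in KO skin. In whole skin, fewer cells of a type and less RNA per cell cannot be told apart, and how far macrophages account for Fpr1, Fpr2 and Csf3r was not tested. KO replicate 2 also had low fibroblast markers (sum 24.9 FPKM, against 180 to 422 FPKM in the other 3 libraries) and low endothelial markers (7.22 against 60.1 to 85.0 FPKM). Erythroid markers, which stand for blood in the biopsy, summed to 133 and 232 FPKM in WT and to 119 and 33.2 FPKM in KO libraries. Of 6 eosinophil markers 5 were under the limit, Epx at 0 in every library, and the tested Ear2 had overlapping groups with 30.9 and 17.8 FPKM in WT skin against 21.6 and 42.2 FPKM in KO skin. The mast cell markers summed to 67.7 and 70.7 FPKM in WT skin against 99.7 and 11.2 FPKM in KO skin. Of 5 keratinocyte markers, the basal keratins Krt5 and Krt14 had log2 differences of 1.15 (standard error 0.24) and 1.11 (standard error 0.25). The groups overlapped in Krt1, Krt10 and Tgm1 of differentiated keratinocytes, which were highest in KO replicate 1 and lowest in KO replicate 2, and the median of the list went from 0.44 to -0.55 without KO replicate 1. T cell markers were low in both genotypes, with only Cd3e and Cd3g above the limit. The part of these cells in the member values was not tested.

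**Figure D4:**
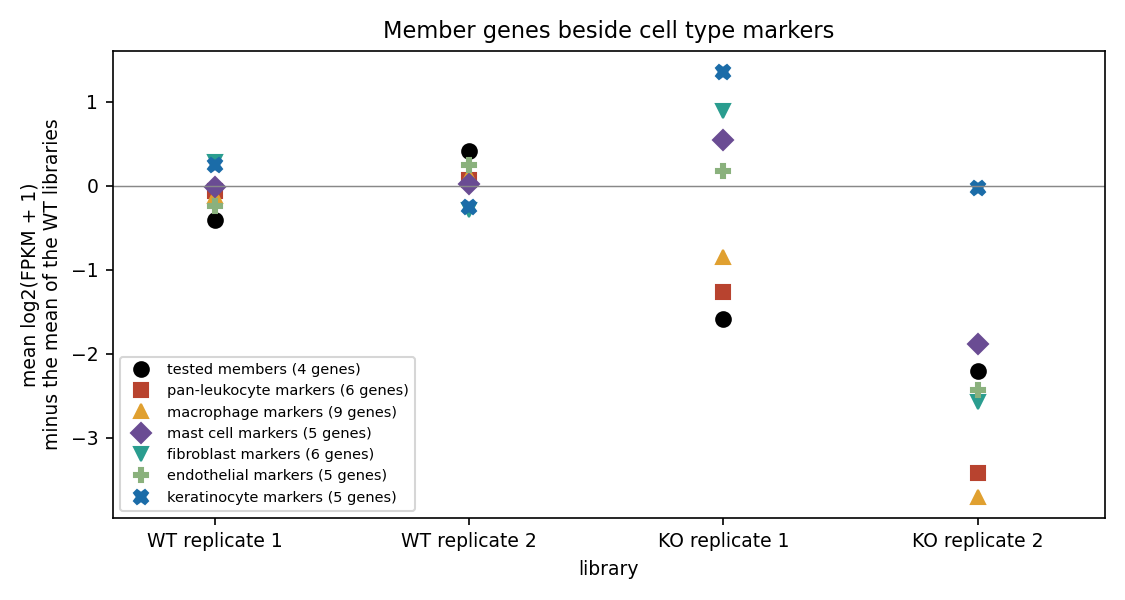
Mean log2(FPKM + 1) of the tested members and of 6 marker lists in each library (horizontal axis), as the distance from the mean of the WT libraries (vertical axis, log2 units). The members lie at -1.59 and -2.20 in KO replicates 1 and 2, the pan-leukocyte markers at -1.27 and -3.41, and fibroblast and endothelial markers are low in KO replicate 2 only.

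Measured against the pan-leukocyte markers, the 4 tested members stood at -3.10 and -2.41 log2 units in WT and at -3.07 and -1.54 log2 units in KO libraries. The groups overlapped on this scale, and the difference of the means, 0.44, was smaller than the spread between replicates (SD 0.84). Against the macrophage markers the members stood at -3.67 and -3.08 in WT and at -4.12 and -1.88 in KO libraries, a difference of 0.37 (SD 1.16). Both differences depended on the pseudocount, which weighs on the low members more than on the abundant markers: with 0.1 in place of 1 they were -0.28 and -0.37. No direction relative to leukocyte markers can therefore be read.

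Among all tested genes outside the 9, the 5 whose levels followed the mean of the 4 tested members most closely were A530064D06Rik, Nfe2, Pde1b, Batf and Mybph, with a root-mean-square difference of 0.0654 to 0.105 log2 units over the 4 libraries. Nfe2, a transcription factor, had WT levels of 2.46 and 6.15 FPKM and KO levels of 0.604 and 0.149 FPKM. Nfe2 and A530064D06Rik passed the limit for testing through the WT libraries alone, so their direction was in part fixed by it. Batf, an AP-1 family factor of lymphocytes and dendritic cells, had 5.06 and 9.63 FPKM in WT skin against 2.15 and 0.773 FPKM in KO skin. With 4 libraries many genes follow any given order closely, so the likeness is a description only.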

How the data were processed

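Total RNA of BLM-treated skin was sequenced as paired ends, with 2 WT and 2 GSDMD KO libraries. The submitters' processing notes list HISAT2 (version 2.0.1), StringTie (version 2.0.6) and build mm9. The paper describes read counts and DESeq2, but the table deposited by the authors holds FPKM values, already divided by transcript length and depth: 99.993% of the values above 0 are not whole. Count models were therefore not used. Columns were matched to samples by the titles.

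Genes reaching 1 FPKM in 2 or more of the libraries (13027) entered a limma fit (limma version 3.58.1 under R version 4.3.3) of log2(FPKM + 1) on genotype alone, using a mean-variance trend and Benjamini-Hochberg adjusted p-values. The fit was tested on simulated data. No source states that the 2 libraries of a group came from separate mice, so p-values measure the spread between these libraries. The depth is not in the table. It was estimated from the step that 1 fragment adds in 1713 genes that have one long annotated transcript (1 fragment per kilobase was worth 0.0572 to 0.0783 FPKM), so fragment numbers are approximate. Named genes are the 9 members, genes of the lists and the 5 nearest genes; some listed genes are not reported here. The members, lists and tests were chosen with earlier results of these data known. Positions and exons came from GENCODE on mm9, promoters from RefSeq on GRCm38.p6. Figures used matplotlib (version 3.10.9).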

Additional observations from a re-analysis of the deposited data

How the results depend on the processing

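The log2 differences of the 4 tested members kept their negative sign under every alternative that could be fitted. A limit of 5 FPKM left only Retnlg among the members, and Fpr2 fell under the limit of 1 FPKM when either WT library was left out. No gene was called except without KO replicate 1 or 2, so leaving out a library gave 0 to 1168 lower and 0 to 752 higher genes. At the unadjusted p, leaving out a library gave 205 (without WT replicate 2) to 1600 (without KO replicate 1) lower and 264 to 1288 higher genes, and 336 lower and 696 higher without KO replicate 2. Same-numbered libraries were not paired (correlation of deviations -0.20, and no source ties the numbers). With the replicate block 686 genes were lower and 907 higher at the unadjusted p, with a crossed block, added after the data were seen, 681 and 819. The fit with the replicate block called no gene after adjustment.

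Medians of lists moved by more than the spread between replicates as follows; the cause was not tested. With a pseudocount of 0.1, the members stood at -3.10 and the transcription factors at -0.99. With no filter, where genes near 0 enter, the members stood at -0.22, secondary granule genes at -0.32 and all genes at 0.0227. With the limit of 5 FPKM, where fewer genes enter, the other chemoattractant receptors stood at -2.56, CSF3R signalling at -0.45 and the transcription factors at 0.33, on the other side of 0. With TPM, where more genes pass the limit, secondary granule genes stood at -0.99. The median of all tested genes, 0.11, became -0.0277 with upper-quartile scaling and 0.00682 with median-ratio factors, a shift of the whole scale that is small beside the member differences.

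Leaving out each library in turn gave these ranges of medians: receptor ligands -5.14 to -1.0003, secondary granule -3.25 to -0.75, NADPH oxidase -3.42 to -1.44, mature neutrophil -2.48 to -0.65, pan-leukocyte -3.40 to -1.25, macrophage -3.83 to -0.998 and all tested genes 0.0710 to 0.165. The range of the transcription factors was -0.52 to 0.79 and that of the protease inhibitors -0.27 to 1.82, and both medians changed sign without WT replicate 2. The keratinocyte median was -0.55 without KO replicate 1. The hair follicle median was 2.25 to 5.41 when a library other than KO replicate 1 was left out. Without KO replicate 1 too few of these genes reached the limit, and no value is given. The member level relative to pan-leukocyte and macrophage markers changed sign with a pseudocount of 0.1, to -0.28 and -0.37.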
